A study of Mus musculus with 78 samples.

Results

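The proteasome genes of the mouse striatum were taken as every gene whose symbol on the array platform begins with Psm, a letter from a to g and a digit. The platform annotation held 49 such genes among 19057 genes with a single symbol, represented by 86 probes. Where a gene had several probes, the one with the highest mean over all arrays stood for it. A filter kept probes that, in 1 group or more, were brighter than the array median on each array, and 44 of the 49 genes were then tested, out of 12371 genes in all. The other 5, the alpha ring genes Psma1, Psma3 and Psma6, the regulatory subunit gene Psmd3 and the assembly chaperone gene Psmg4, had dim probes with mean log2 signals of 6.47, 6.53, 6.50, 6.59 and 6.56, and no change is reported for them. The symbol rule also took in Psmc3ip, a meiotic recombination factor, and Psme3ip1, a protein that binds an activator, which are not proteasome subunits. The inhibitor gene Psmf1 was not analysed here.

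RNA of whole striatum, the deep forebrain region that receives dense dopamine input, came from C57BL/6J mice and was hybridised to 78 Illumina expression arrays, 6 to a slide. Below, 3 slides with 18 arrays are called the smaller chip lot and the other 10, with 60 arrays, the larger. The sample titles and table headers name no lot, so this split is inferred and may not be a batch. Methamphetamine is a stimulant that releases dopamine, and heroin is an opioid whose metabolites act on the mu receptor. Methamphetamine began at 2 and ended at 8 mg/kg, heroin began at 10 and ended at 40 mg/kg, and saline was the vehicle, each injected into the abdomen 2 times a day for 12 days. Brains were taken during treatment (days 1, 3, 6 and 12) and during withdrawal (labelled days 13, 15, 18 and 24). Each drug and day had 3 arrays, which makes 12 for a drug in a phase. The headers of the signal table number the withdrawal days 1, 3, 6 and 12, so the time since the last injection is inferred to be the shorter one and the labelled days serve as names. A further 6 arrays came from untreated naive mice. The labels number the replicates without saying that they were separate animals, so p-values measure the spread between these samples.

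The proteasome degrades proteins that carry chains of ubiquitin. Its core particle is a barrel of outer alpha rings and inner beta rings, with the cutting sites on the beta subunits Psmb5, Psmb6 and Psmb7. A regulatory particle of ATPases (Psmc genes) and other subunits (Psmd genes) recognises, unfolds and threads the substrate, and activators of the Psme genes can take its place. In immune cells, and in other cells exposed to interferon, Psmb8, Psmb9 and Psmb10 are built into the core instead of Psmb5, Psmb6 and Psmb7, and the resulting immunoproteasome favours peptides that fit MHC class I molecules. In neurons the proteasome is known for its part in synaptic protein turnover.

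Median raw signals lay between 95.05 and 184 intensity units, and the number of arrays limits the precision. The 3 methamphetamine day 1 arrays stood apart in their cell type markers. Over the 14 tested genes of a list of 19 hippocampal markers their mean log2 signals were 10.42, 10.17 and 10.74, against 8.89 to 9.41 on the other 75 arrays, and over 12 of 16 medium spiny neuron markers they were 11.44, 11.80 and 9.42, against 11.58 to 12.64. The striatal markers were thus present on all arrays, and 11 of the 12 were above the array median everywhere. In bulk tissue fewer cells of a type and less RNA per cell cannot be told apart. On these 3 arrays the mean over the tested proteasome genes, without Psmb8, Psmb9 and Psmb10, was 10.79 to 10.83, inside the 10.74 to 10.86 of the others.

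The probes of most proteasome genes were bright. Their median log2 signal was 11.15, against 8.93 over all genes tested. Signals of different probes do not rank transcripts, since probes differ in affinity, so the order is one of probes. The brightest member was Psmb4, a structural beta subunit, at 13.63 ± 0.11 (SD, n = 78), with arrays between 13.36 and 13.88. The alpha ring gene Psma2 followed at 13.34 ± 0.08 and the ATPase gene Psmc2 at 13.17 ± 0.08. Psmd1, a scaffold subunit of the regulatory particle, had 13.12 ± 0.10, and Psmd4, its ubiquitin receptor, 12.94 ± 0.12. The ranges of single arrays of these 5 genes overlap from each to the next. The 7 constitutive beta ring genes had means from 10.82 for Psmb5 to 13.63 for Psmb4, the 6 ATPase genes from 7.27 for Psmc6 to 13.17 for Psmc2, and the 13 tested non-ATPase genes from 7.65 for the scaffold gene Psmd2 to 13.12 for Psmd1.

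The dimmest members tested were those known mainly from other organs. Psmb11, the thymus form of a catalytic subunit, had a mean of 6.92 and lay above the array median on 28 of 78 arrays. Psma8, the testis form of an alpha subunit, had 7.03 and lay above it on 63. The interferon-inducible activator genes Psme1 and Psme2 had 11.16 and 8.42, the nuclear activator gene Psme3 11.26 and Psme4, an activator of nuclear proteasomes, 11.01. The assembly chaperone genes Psmg1, Psmg2 and Psmg3, which help to build the alpha ring, had 9.01, 10.00 and 9.09.

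**Figure D1:**
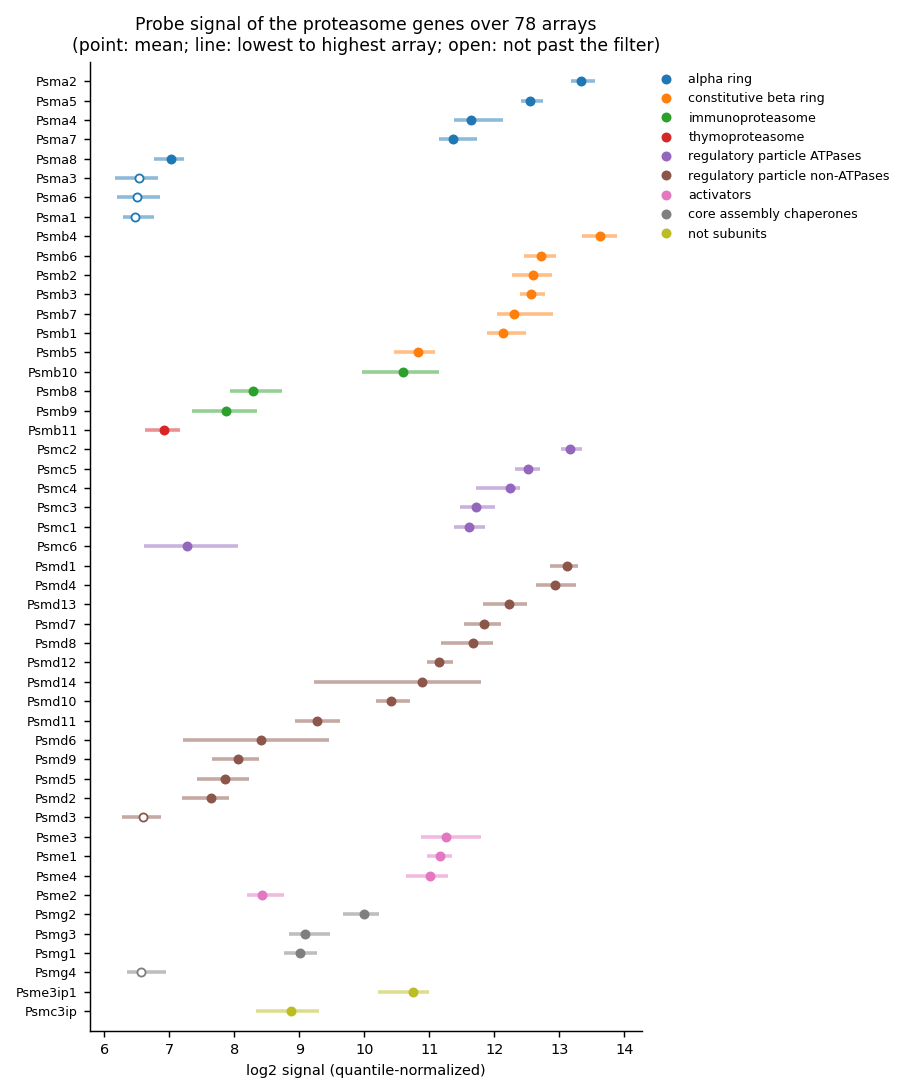
Log2 signal (quantile-normalized, x axis) of all 49 genes, grouped by role and ordered by mean within each group. Points are means over 78 arrays, lines run from the lowest to the highest array, and open points mark the 5 genes that did not pass the filter. Most lines are short, and those of Psmd14, Psmd6 and Psmc6 are long.

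Once group and slide were taken out, most proteasome genes varied less between arrays than the median gene. Their median residual SD was 0.0802 log2 units, against 0.106 over all genes tested, and 31 of the 44 were below that median of all genes. The share of bright probes differs between the members and all genes, as given above, and its part in the smaller spread was not tested. The mean of the 41 tested genes other than Psmb8, Psmb9 and Psmb10 ran from 10.74, on a saline treatment day 1 array, to 10.86, on a methamphetamine withdrawal day 18 array. A mean over many genes on quantile-normalized arrays has a narrow range by construction, so this one is a description.

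Methamphetamine treatment against saline asked whether repeated stimulant injection altered striatal transcripts. None of the 44 proteasome genes passed the threshold, an adjusted p of 0.05 (limma, Benjamini-Hochberg over all genes), in a comparison in which 4.62% of the 12371 genes did. Without the 3 day 1 arrays 42 genes passed in place of 572, and again no member did. With an unadjusted p below 0.05 there were 5 members, 11.4%, against 18% of all genes. The members' median change was 0.01 and that of all genes 0.00. Changes of single members lay between -0.09 for Psmb11 and 0.15 for Psmd6, and 28 of 44 were above 0, against 51% of all genes. All 7 constitutive beta ring genes were above 0, between 0.00 and 0.06. In heroin treatment 6 of these 7 were above 0. In saline treatment against naive 0 of the 7 were, with changes from -0.05 to -0.00. These 3 comparisons share the saline treatment arrays, so the signs are not independent, and their cause was not tested.

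The smallest p in methamphetamine treatment belonged to the chaperone gene Psmg3. Its signal was 8.90, 9.09 and 9.37 (lowest, median and highest of 12 arrays) with methamphetamine, against 8.86, 9.0 and 9.24 with saline. The groups overlapped over most of their range. The difference adjusted for slide was 0.10 ± 0.0324 (SE), with a limma adjusted p of 0.0508. Methamphetamine was higher on 9 of the 11 slides that held both. On no slide were the drug and saline arrays of the same day. This and the later slide counts therefore set different days against each other. Psmd6, a subunit of the regulatory particle's lid, followed at 0.15 ± 0.0567 with a limma adjusted p of 0.134. Its 12 arrays ran from 7.41 to 9.41 with methamphetamine, against 7.35 to 8.85 with saline. Psmb3, a structural beta subunit, was at 0.06 ± 0.0281 (limma adjusted p = 0.234). Psmg3 passed under 4 of 12 other ways of processing, given with the limits, and its adjusted p then lay between 0.0400 and 0.0460.

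The catalytic genes moved little during methamphetamine treatment. Psmb5, with chymotrypsin-like activity, was at 0.06 (limma adjusted p = 0.259), Psmb6, with caspase-like activity, at 0.01 (0.893) and Psmb7, with trypsin-like activity, at 0.04 (0.714). Psmb8, Psmb9 and Psmb10 were at 0.04, -0.01 and 0.01, with limma adjusted p of 0.775, 0.956 and 0.939. The activator genes Psme1 and Psme2 were at -0.03 and -0.02. The brightest member, Psmb4, was at 0.03.

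Heroin treatment against saline gave the same count. No proteasome gene passed, and 1.66% of all genes did. With an unadjusted p below 0.05 there were 4 members, 9.09%, against 13.1% of all genes. The members' median was 0.01, all genes' was 0.00, and 24 of 44 were above 0, against 50.9% of all genes. Psmd8, a subunit of the regulatory particle's lid, had 11.50, 11.67 and 11.95 (lowest, median and highest of 12) with heroin, against 11.25, 11.66 and 11.85 with saline. The medians nearly coincide and the groups overlapped. Its slide-adjusted difference was 0.10 ± 0.0358 with a limma adjusted p of 0.151, and heroin was higher on 8 of 11 slides. Psmg3 was at 0.07 (limma adjusted p = 0.321) and Psma2 at -0.06 (0.330). Psmb5, Psmb6 and Psmb7 were at 0.00, 0.00 and 0.05, and Psmb8, Psmb9 and Psmb10 at -0.06, -0.06 and 0.03. All 4 activator genes were below 0, between -0.04 and -0.01.

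These comparisons bound the change of each gene taken singly. No interval was computed for a change shared by the members. The 95% confidence interval of a member's difference had a median half-width of 0.07 log2 units in each phase comparison with saline. In methamphetamine treatment 43 of 44 members had both bounds within 0.2 of 0, and the farthest bound was that of Psmd6 at 0.26, a fold of 1.20. In heroin treatment all 44 did, and the farthest was that of Psmd8 at 0.17, a fold of 1.13. In methamphetamine and heroin withdrawal it was 43 of 44 each, with the farthest bounds at 0.22 for Psmb9, a fold of 1.17, and 0.25 in size for Psmb10, a fold of 1.19.

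**Figure D2:**
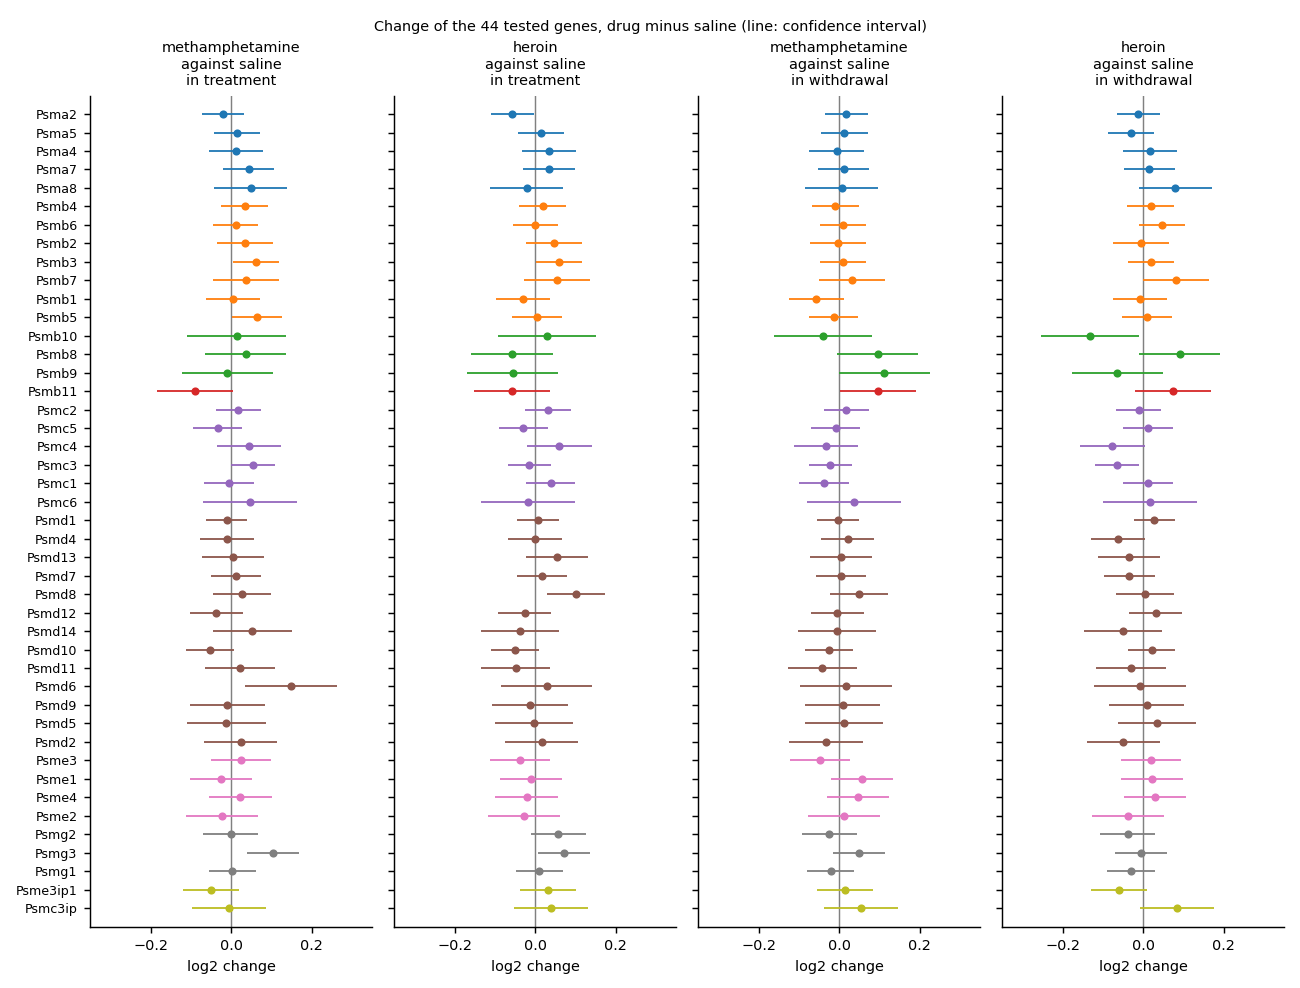
Log2 change of the 44 tested genes (x axis, drug minus saline) in 4 comparisons, with the genes in the order and colours of the plot of probe signals. Points are slide-adjusted differences and lines their 95% confidence intervals. Nearly all intervals cross 0, and no gene passed the adjusted threshold in any panel.

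In withdrawal no proteasome gene passed against saline for either drug. With methamphetamine 0.0243% of all genes passed, the members' median was 0.01, and 25 of 44 were above 0, against 50.5% of all genes. With an unadjusted p below 0.05 there was 1 member, against 5.57% of all genes. That member was the dim Psmb11 at 0.10 (limma adjusted p = 0.883), followed by Psmb9 at 0.11 ± 0.0559 (0.883) and Psmb8 at 0.10 ± 0.0501 (0.895). Psmb9 was higher with methamphetamine on 9 of 11 slides and Psmb8 on 8 of 11, with slide means of 0.18 and 0.12 in the larger chip lot, against -0.03 and -0.02 in the smaller. Psmb5, Psmb6 and Psmb7 were at -0.01, 0.01 and 0.03, and Psme1 and Psme2 at 0.06 and 0.01.

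In heroin withdrawal 0.0485% of all genes passed. The members' median was 0.01, 23 of 44 were above 0, against 49.2% of all genes, and 2 members had an unadjusted p below 0.05, against 10.9% of all genes. The ATPase gene Psmc3 was at -0.06 ± 0.0270 (limma adjusted p = 0.360). Psmb10 was at -0.13 ± 0.0606 (0.412), lower with heroin on 9 of 11 slides. Its arrays were at 9.97, 10.51 and 10.82 (lowest, median and highest of 12) with heroin, against 10.43, 10.64 and 10.90 with saline, and the groups overlapped. Psmb7 was at 0.08 (0.458), Psmb8 at 0.09 (0.521) and Psmb9 at -0.06 (0.711). The 3 immunoproteasome genes thus did not share a sign.

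Neither drug set against the other moved a proteasome gene past the threshold. In methamphetamine against heroin treatment 3.48% of genes passed and no member, with 4 members below an unadjusted p of 0.05, against 18.2% of all genes. Psmc3 was at 0.07 (limma adjusted p = 0.145), Psme3ip1 at -0.08 (0.196) and Psmd8 at -0.08 (0.248). In methamphetamine against heroin withdrawal 0.00808% of genes and no member passed, with 3 members below an unadjusted p of 0.05, against 6.73% of all genes. Psmb9 had the smallest p there. Its arrays were at 7.55, 8.02 and 8.24 (lowest, median and highest of 12) with methamphetamine, against 7.36, 7.86 and 8.11 with heroin. The groups overlapped and the difference was 0.18 ± 0.0559 (limma adjusted p = 0.599). Psmd4 and Psme3ip1 followed at 0.08 and 0.07 (0.678 and 0.711).

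No proteasome gene passed for a difference of a drug effect between phases or between days. For the methamphetamine effect in treatment minus that in withdrawal, 0.356% of genes passed. That is 44 genes, against 1 without methamphetamine day 1 and 1 in the authors' processed values. With an unadjusted p below 0.05 there were 2 members, against 11.9% of all genes, and Psmb11 had the smallest p at a difference of -0.19 (limma adjusted p = 0.207). Its probe was above the array median on 28 of 78 arrays, so this is a difference between dim signals. For heroin 0.0566% of genes passed. With an unadjusted p below 0.05 there were 3 members, against 10.1% of all genes, led by the ATPase gene Psmc4 at 0.14 (limma adjusted p = 0.388). Psmb8 followed at -0.15 (limma adjusted p = 0.472).

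Moderated F tests asked whether an effect differed between the days of a phase. For methamphetamine treatment 1.1% of genes and no member passed, with 3 members below an unadjusted p of 0.05 (10% of all genes), and Psmc3 came first (limma adjusted p = 0.296). Of all genes 136 passed there, against 2 without methamphetamine day 1, 1 in the authors' processed values and 501 with no slide term. For heroin treatment 0% of genes passed, with 1 member below an unadjusted p of 0.05 (4.11% of all genes), which was Psmd8 (limma adjusted p = 0.999). For methamphetamine withdrawal 0% passed, with 0 members below an unadjusted p of 0.05 (4.74% of all genes). For heroin withdrawal 0% passed, with 2 members below an unadjusted p of 0.05 (7.13% of all genes), led by Psmc3 (limma adjusted p = 0.427). Between the 8 days of saline 0.00808% of genes and no member passed, with 2 members below an unadjusted p of 0.05 (9.49% of all genes), led by the ATPase gene Psmc1 (limma adjusted p = 0.480).

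On single days, with 3 arrays against 3, 1 proteasome gene passed in 16 comparisons. In none of them did a drug array share a slide with a saline array of its day. The adjustment for slide therefore rests on the other arrays of those slides. For methamphetamine on days 1, 3, 6, 12, 13, 15, 18 and 24 no member passed, and the shares of all genes were 7.23%, 0%, 0.0566%, 0.0243%, 0.00808%, 0%, 0.0162% and 0%. The members with an unadjusted p below 0.05 numbered 4, 2, 1, 3, 3, 1, 0 and 0, against 19.6%, 3.7%, 4.7%, 5.31%, 3.87%, 7.99%, 3.74% and 3.02% of all genes. For heroin on the same days the shares of all genes were 0%, 0.00808%, 0.00808%, 0.154%, 0%, 1.2%, 0% and 0%, and members with an unadjusted p below 0.05 numbered 2, 3, 0, 1, 4, 5, 2 and 2, against 4.74%, 3.82%, 5.86%, 8.95%, 7.86%, 12.5%, 4.05% and 2.9% of all genes.

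The member that passed was Psmc3, an ATPase of the regulatory particle's base, which was lower on day 15 of heroin. Its 3 heroin arrays were at 11.47, 11.67 and 11.73, against 11.74, 11.84 and 11.87 for saline. Every heroin array lay below every saline array, the closest pair by a narrow margin. The group means were 11.62 and 11.82, and after adjustment for slide Psmc3 fell by 0.30 (SE 0.0659, limma adjusted p = 0.0313). On that day 149 genes passed, 123 of them lower. As in the other single-day comparisons, none of these 6 arrays shared a slide with an array of the other group. The adjustment thus rests on the other arrays of their slides. With no slide term the change was -0.20 (limma adjusted p = 0.563), and with slides as a random block -0.25 (0.0551). In the larger chip lot alone it was -0.30 (0.0809). In the authors' processed values, whose scale is unknown, it was -0.03 (0.111). Psmc3 was past the threshold under 8 of 12 other ways of processing, with adjusted p from 0.0141 to 0.563, and in 71 of 78 fits that each left out 1 array, with adjusted p from 0.00868 to 0.233. The effect of heroin on Psmc3 was -0.01, -0.12, 0.04 and 0.04 on treatment days 1, 3, 6 and 12, and 0.07, -0.09 and 0.06 on days 13, 18 and 24. Of the 8 days, day 15 was the lowest.

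Psmb10 came next on day 15 of heroin. Its arrays were at 10.42, 10.44 and 10.70 with heroin, against 10.61, 10.73 and 10.90 with saline. The groups overlapped, and the slide-adjusted difference of -0.50 ± 0.148 had a limma adjusted p of 0.0813. Psmd8 followed at 0.19 (limma adjusted p = 0.345).

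On day 1 of methamphetamine, in the arrays that stood apart, Psmb9 and Psmb5 came nearest to the threshold. Psmb9 was at 7.58, 7.69 and 7.77 with methamphetamine, against 7.89, 7.94 and 7.97 with saline. All methamphetamine arrays were lower, with a slide-adjusted difference of -0.42 ± 0.149 (limma adjusted p = 0.0759). Psmb5 was at 10.98, 10.999 and 11.05 with methamphetamine, against 10.67, 10.74 and 10.83 with saline. All methamphetamine arrays were higher, with a difference of 0.23 ± 0.0817 (limma adjusted p = 0.0768). The hippocampal and striatal marker levels of these 3 arrays are given above, and their part in these differences was not tested. Psmd8 was at 0.20 (limma adjusted p = 0.217).

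Saline against naive compared injected with untreated mice. All 6 naive arrays lay at the last position of their slides and in the larger chip lot. No saline treatment array lay at that position. The model had no term for position, and its part was not tested. In saline treatment against naive 0.0404% of genes and no member passed, with 3 members below an unadjusted p of 0.05 (7.3% of all genes). The members' median was -0.02, and 11 of 44 were above 0, against 48.2% of all genes. Psmg3 was at -0.11 (limma adjusted p = 0.595), Psme3ip1 at -0.10 (0.654) and Psmb8 at -0.14 (0.662). In saline withdrawal against naive 0.17% of genes and no member passed, with 2 members below an unadjusted p of 0.05 (8% of all genes), and 20 of 44 were above 0, against 48.1% of all genes. Psmb8 had the smallest p. Its arrays were at 7.93, 8.26 and 8.35 (lowest, median and highest of 12) in saline withdrawal, against 8.22, 8.38 and 8.64 in the 6 naive arrays. The groups overlapped, and the difference of -0.17 ± 0.0635 had a limma adjusted p of 0.442. Psmb9 was at -0.08 and -0.09 in these comparisons, and Psmb10 at -0.07 and -0.01.

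The immunoproteasome genes varied more between arrays than most members. The residual SD was 0.124 for Psmb8, 0.140 for Psmb9 and 0.153 for Psmb10, against the members' median of 0.0802, and that of Psmb10 was the highest of the 44. Psmb8 and Psmb9 had dim probes, with means of 8.28 and 7.87, while Psmb10 had 10.60. Members near the first 2 in signal, Psme2, Psmd6, Psmd9, Psmd5 and Psmd2, had residual SDs of 0.109, 0.142, 0.114, 0.120 and 0.110. The larger spread of Psmb8 and Psmb9 is thus shared with other dim members. Over the 8 days the methamphetamine effect on Psmb8 ran from -0.08 on day 1 to 0.24 on day 15, and the heroin effect from -0.34 on day 3 to 0.21 on day 24. For Psmb9 the methamphetamine effect was lowest on day 1, given above, and highest on day 6 at 0.34, and the heroin effect ran from -0.33 on day 18 to 0.16 on day 24. For Psmb10 they ran from -0.24 to 0.15 and from -0.50 to 0.18. On single days the limma adjusted p of these 3 genes was 0.0759 at the smallest.

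**Figure D3:**
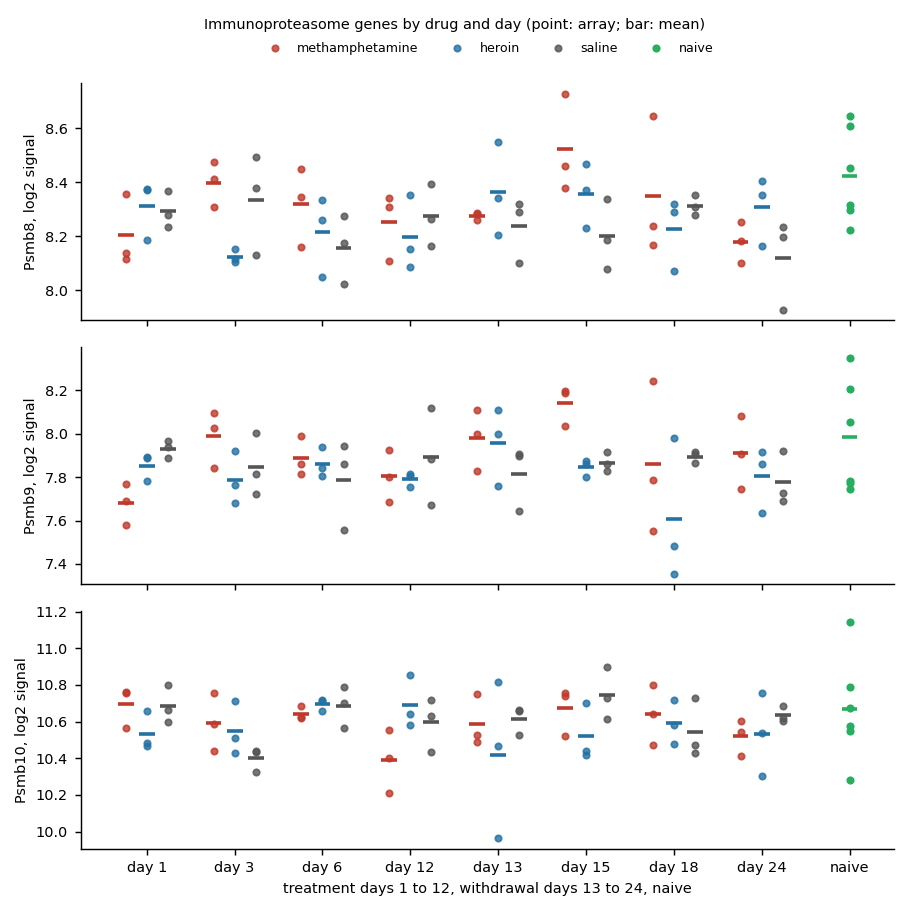
Log2 signal (y axis) of Psmb8, Psmb9 and Psmb10 by day (x axis) in methamphetamine, heroin, saline and naive arrays. Points are single arrays and bars group means, without adjustment for slide. The drugs and saline overlap on most days, and single arrays such as the heroin day 13 array of Psmb10 at 9.97 stand away from their group.

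Psmb8 and Psmb9 lie with the peptide transporter genes Tap1 and Tap2 in the MHC region of chromosome 17, and Psmb10 lies elsewhere. Psmb8 and Psmb9 went up and down together between arrays of a slide. Correlations were taken over 78 arrays after each slide's mean was removed, with permutation within slides (100000 permutations, 2-sided) and adjustment over 45 relations, all chosen after values of these genes had been seen. Psmb8 with Psmb9 gave a Pearson r of 0.57 (adjusted permutation p = 0.000225) and a Spearman rho of 0.47 (0.000562). Psmb10 followed neither, with r of 0.02 against Psmb8 and 0.12 against Psmb9 (adjusted permutation p = 0.912 and 0.647) and rho of -0.11 and 0.01 (0.639 and 0.951). Without the 2 arrays farthest from the median of Psmb8 the first r was 0.47. With group means removed as well it was 0.53. It held in the larger chip lot, where r was 0.65 over 60 arrays, and not in the smaller, where r was 0.02 over 18.

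The same 2 genes followed B2m, the light chain of MHC class I molecules. Psmb8 with B2m gave r = 0.70 (permutation p = 1e-05, the smallest that the permutations can give, adjusted 0.000150) and rho = 0.60 (adjusted permutation p = 0.000225). Psmb9 with B2m gave r = 0.60 (adjusted permutation p = 0.000150) and rho = 0.46 (0.00108). Without the 2 farthest arrays r was 0.63 for Psmb8 and 0.56 for Psmb9, and without methamphetamine day 1 it was 0.69 and 0.60. With group means removed as well as slide means, r was lower, at 0.56 for Psmb8 and 0.54 for Psmb9. Within the smaller lot r was 0.08 and -0.04, and within the larger, which held all 6 naive arrays, it was 0.76 and 0.69. Psmb8 also followed the class I heavy chain gene H2-D1 with r = 0.68 and rho = 0.60, and H2-K1 with r = 0.50 and rho = 0.48. The adjusted permutation p was 0.000150 and 0.000360 for r, and 0.000225 and 0.000562 for rho. In the smaller lot r was 0.09 and -0.23, so these relations too rest on the larger lot. Psmb9 followed H2-D1 and H2-K1 with r of 0.53 and 0.48 and rho of 0.43 and 0.47 (adjusted permutation p of 0.000450 and 0.000964 for r, and 0.00167 and 0.00112 for rho), and in the smaller lot r was -0.01 and 0.09. H2-D1 and H2-K1 are near-identical paralogs, and their probes may share signal.

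The constitutive catalytic genes did not follow B2m. Psmb5, Psmb6 and Psmb7 gave r of 0.09, 0.06 and -0.03 and rho of 0.03, 0.07 and -0.03 with it, with adjusted permutation p of 0.695, 0.782 and 0.870 for r. Psmb10 gave r = 0.24 and rho = 0.08 (adjusted permutation p = 0.179 and 0.733). Of the transporter genes, Tap2 followed Psmb8 with r = 0.43 and rho = 0.36 (adjusted permutation p = 0.00425 and 0.0207), with r of -0.08 in the smaller lot and 0.55 in the larger. The other relations of Psmb8 and Psmb9 with them did not pass. Psmb8 with Tap1 gave r = 0.21 and rho = 0.17 (adjusted permutation p = 0.205 and 0.397), Psmb9 with Tap1 r = 0.07 and rho = 0.02 (0.790 and 0.938), and Psmb9 with Tap2 r = 0.30 and rho = 0.30 (0.0976 and 0.0662). Psmb10 with Tap2 gave r = 0.36 and rho = 0.21 (adjusted permutation p = 0.0267 and 0.214), and r fell to 0.18 without the 2 farthest arrays, on which it rests. Of the 45 relations 10 had an adjusted permutation p below 0.05 for r. Marker lists of cells that express immunoproteasome were set against Psmb5 to Psmb10 as well, and Psmb8 is given first. Over the 8 endothelial markers r was 0.41 and rho 0.38 (adjusted permutation p = 0.00425 and 0.00979), and over 13 of 14 microglia markers r was 0.29 and rho 0.29 (0.0560 and 0.0662). The microglia relation did not pass. For the endothelial markers r was 0.14 in the smaller lot and 0.49 in the larger. Psmb9 gave r = 0.31 with the endothelial and 0.28 with the microglia list (adjusted permutation p = 0.0642 for each). Psmb10 gave 0.09 and -0.08 (0.713 and 0.782). No relation of Psmb5, Psmb6 or Psmb7 with either list passed. All tested endothelial and microglia markers were above the array median on every array. The mean of the microglia list ran from 9.46 to 10.12 and that of the endothelial list from 8.91 to 9.74 outside methamphetamine day 1, and their part in the relation of Psmb8 with B2m was not tested.

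**Figure D4:**
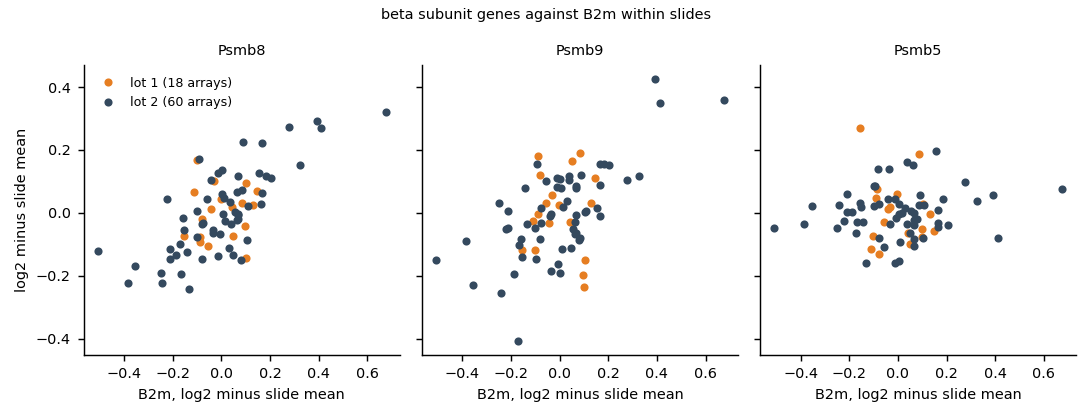
Psmb8, Psmb9 and Psmb5 (y axes, log2 signal minus the mean of the slide) against B2m (x axis, the same measure), 1 point per array, with the inferred chip lots in 2 colours. Psmb8 and Psmb9 rise with B2m among the 60 arrays of lot 2, with r of 0.76 and 0.69, while among the 18 arrays of lot 1 r is 0.08 and -0.04. For Psmb5 r is 0.09 over all arrays.

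Promoters were read for motifs known to matter for proteasome and immunoproteasome genes. The windows, 250 bases before to 50 after the start, are those of RefSeq on GRCm38.p6, and 41 of the 49 genes had 1 or more. A gene counted where any of its windows held a match. The antioxidant response core TGACNNNGC is known for the stress-responsive factor Nfe2l1 and its relatives. This core was found on either strand in 6 of 41 (14.6%), against 14% of 27025 genes with a window. Its G form TGAGNNNGC was found in 13 of 41 (31.7%), against 19.8%. A pair of GAAA blocks set 2 bases apart, known from sites of interferon regulatory factors, was found in 5 (12.2%, against 3.99%). These were Psmb3, Psmd4, Psmd9, Psme1 and Psmg4, none of them an immunoproteasome gene. The gamma-activated form TTCNNNGAA was found in 3 (7.32%, against 9.55%) and CCAAT in 16 (39.0%, against 41.1%). The 2 antioxidant forms differ at 1 letter and so cannot match at the same place of a strand. These are matches of letters and say nothing about binding. The matches in the promoters of Psmb8, Psmb5 and Psmb6 are shown as examples of an immunoproteasome gene and of constitutive catalytic genes described above, and that of Psmd9, an assembly chaperone of the base, as another example of the antioxidant form. Sequences run 5′ to 3′ on the strand of the gene and the capitals mark the motif.
Psmb8, TTCNNNGAA beginning 97 bases before the start, chr17:34198082-34198122, plus strand: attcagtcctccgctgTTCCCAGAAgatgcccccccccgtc
Psmb5, TGACNNNGC beginning 47 bases before the start, chr14:54618018-54618058, minus strand: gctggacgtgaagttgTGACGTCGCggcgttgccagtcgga
Psmb6, TGACNNNGC beginning 9 bases before the start, chr11:70525332-70525372, plus strand: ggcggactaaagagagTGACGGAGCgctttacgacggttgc
Psmd9, TGACNNNGC beginning 31 bases before the start, chr5:123228143-123228183, plus strand: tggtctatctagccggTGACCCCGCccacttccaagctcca
Psmb9 held CCAAT and none of the other motifs in its window.

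The genes that work with the proteasome gave a similar picture. A list of its partners, from the maturation factor Pomp to the ubiquitin shuttle genes, had 15 tested of 32 named symbols. None passed in the 4 comparisons of a drug with saline, and 0, 2, 1 and 1 of the 15 had an unadjusted p below 0.05 in methamphetamine treatment, heroin treatment, methamphetamine withdrawal and heroin withdrawal, against 18%, 13.1%, 5.57% and 10.9% of all genes. The list's medians were 0.01, -0.01, 0.00 and -0.02, against 0.00 for all genes in each. Nfe2l1, the factor that raises proteasome genes when proteasome activity is low, was at -0.05, -0.03, 0.02 and 0.03 (limma adjusted p = 0.307, 0.757, 0.976 and 0.725). Its relative Nfe2l2 was at 0.08 in methamphetamine treatment (limma adjusted p = 0.306) and at 0.10 in methamphetamine withdrawal (0.868). The ubiquitin shuttle gene Rad23b was at 0.08 in heroin treatment (0.298), and Ecpas, a proteasome adaptor, at -0.10 in heroin withdrawal (0.328).

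Of the genes of class I antigen processing 10 of 14 named were tested. In heroin treatment 1 of the 10 passed, against 1.66% of all genes. It was Pdia3, a disulfide isomerase of the peptide-loading complex and of general protein folding, which fell by 0.12 (SE 0.0331, limma adjusted p = 0.0435), with means of 11.51 with heroin and 11.62 with saline. The call held under 7 of 12 other ways of processing, with adjusted p from 0.0134 to 0.670, and was lost under median centring, where the change was -0.08 (limma adjusted p = 0.448). The median of the list in heroin treatment was -0.08, against 0.00 for all genes. In methamphetamine treatment Pdia3 was at -0.10 (limma adjusted p = 0.0666). In methamphetamine against heroin treatment 1 of the 10 passed, against 3.48% of all genes. It was Irf1, an interferon-induced transcription factor that acts on immunoproteasome genes, higher with methamphetamine by 0.18 ± 0.0468 (limma adjusted p = 0.0186). Without the methamphetamine day 1 arrays, where 9 genes passed in place of 431, Irf1 was at 0.15 and no longer passed (limma adjusted p = 0.675). It passed under 8 of 12 other ways of processing, and with the mean of its probes it was at 0.07 (limma adjusted p = 0.134). Against saline it was at 0.09 with methamphetamine and -0.09 with heroin (limma adjusted p = 0.297 and 0.410), which share their saline arrays. B2m was at 0.20 in methamphetamine against heroin treatment (0.0615) and at 0.19 in methamphetamine withdrawal against saline (0.769).

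The largest differences in members' signals lay between slides. The 3 genes described here were chosen after their values were seen. Psmd14, the deubiquitinating enzyme of the regulatory particle's lid, had slide means from 9.42 on slide 3 to 11.72 on slide 11, a range of 2.30 log2 units or 4.93-fold, and the slide accounted for 96.2% of its variance. Psmd6 ran from 7.30 to 9.17 and Psmc6 from 6.72 to 7.78, lowest and highest on the same slides. Each slide held arrays of several groups. In methamphetamine treatment, heroin treatment, methamphetamine withdrawal and heroin withdrawal against saline, with slide in the model, Psmd14 was at 0.05, -0.04, -0.01 and -0.05, Psmd6 at 0.15, 0.03, 0.02 and -0.01, and Psmc6 at 0.05, -0.02, 0.04 and 0.02. Across the 13 slide means the correlation was 0.986 for Psmd6 with Psmd14, 0.965 for Psmd6 with Psmc6 and 0.961 for Psmd14 with Psmc6, given as a description of points that share a slide. A slide range above 1 was found in 3 of 44 members (6.82%) and in 3.85% of all genes. The median slide range was 0.29 for the members and 0.31 for all genes, while the slide's median share of the variance was 51.5% for the members and 40.1% for all genes. Within a slide the median SD between arrays was 0.09 for Psmd14, 0.14 for Psmd6 and 0.12 for Psmc6.

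A second probe of each of these genes moved less. The other Psmd14 probe ranged over 1.07 between slides and the other Psmd6 probe over 1.19, while the other Psmc6 probe, with a dim mean of 6.39, ranged over 0.15. For the drug comparisons, 20 members had more than 1 probe past the filter. The median gap between the change of the chosen probe and that of the other probe farthest from it was 0.04, and the largest was 0.13, for Psmd2 in heroin withdrawal.

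**Figure D5:**
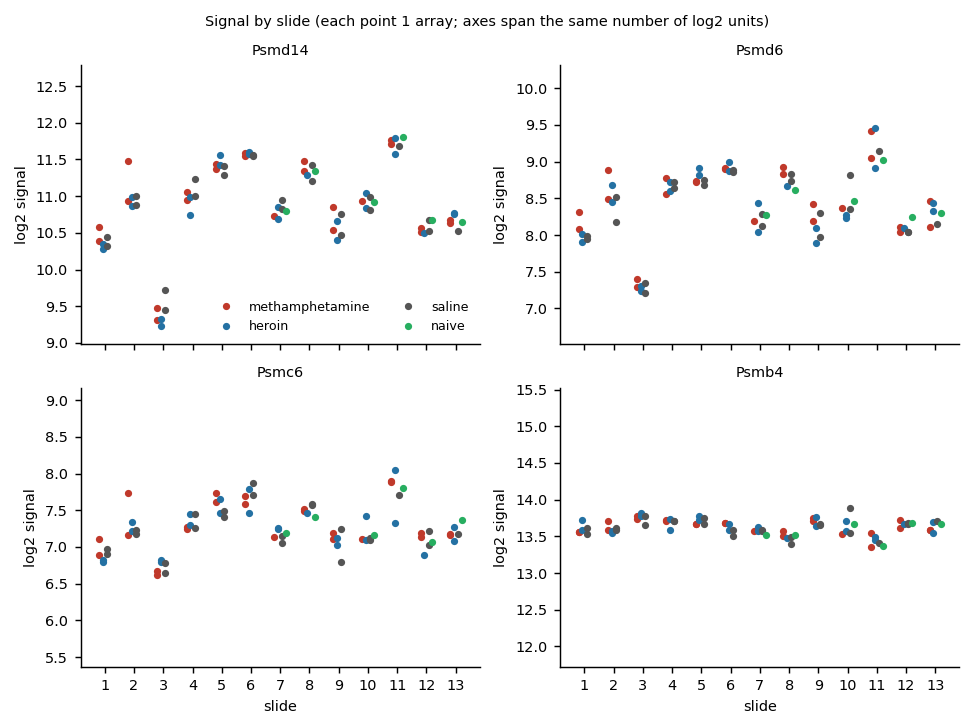
Log2 signal (y axes, all spanning the same number of log2 units) by slide (x axis) of Psmd14, Psmd6, Psmc6 and Psmb4, 1 point per array, with methamphetamine, heroin, saline and naive arrays in colour. Psmd14, Psmd6 and Psmc6 have their lowest slide mean on slide 3 and their highest on slide 11, with the drugs intermixed, while Psmb4 stays between 13.36 and 13.88.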

How the data were processed

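The deposited non-normalized table gives, per the file headers, a linear intensity for each of 45281 probes on 78 arrays. The authors' processed table, also deposited, holds log2 values whose column medians run from 6.94 to 6.95. Software, background correction and normalization behind both are not given in the sources used here. After gene centring, 69 of 78 arrays matched their own processed column best. The median residual SD of the members there is 0.0109, against 0.0802 in the normalized signals, so its scale stays unknown.

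Intensities were quantile-normalized and put on the log2 scale. The platform annotation, which can be old, gave 1 symbol to 34885 probes. Kept were the 23810 probes that were brighter than the array median throughout 1 or more of the 25 groups, with the brightest per symbol (12371 genes). One model (limma 3.58.1, R 4.3.3) held 25 group means and 13 slides, with 41 residual degrees of freedom. Of the slides, 3 with 18 arrays are called the smaller chip lot here. The sample titles and table headers name no lot, so this grouping is inferred. Contrasts average the 4 days of a phase. Tests were 2-sided, p-values were adjusted by Benjamini-Hochberg across the 12371 genes, and the threshold was 0.05. The statistics were tested on simulated data with changes added to some genes. For heroin treatment 38% of changes of 0.15 and 92% of changes of 0.3 passed the threshold. For heroin on day 15 these were 2% and 34%, and 82% of changes of 0.6 passed. Single-day comparisons thus miss most changes of 0.3 or less.

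Members and lists were chosen with earlier results of these data known. Named members are those past the threshold (up to 12 per direction), otherwise the 3 with the smallest p (on single days, where Psmc3 passed or a p came near), and always Psmb5 to Psmb10, Psme1, Psme2 and the brightest and dimmest members, Psmb4 and Psmb11. Of other lists these are up to 4 with the smallest p per comparison, and Nfe2l1. Members named for their signal or slide range, and correlation partners, were chosen after their values were seen. Replicate numbers were not treated as pairs. Alternatives were the processed values, median centring, normexp with an offset of 50, 2 other filters, a fit without slides, a random block for slides, the larger lot alone, the mean of a gene's probes, a replicate block, leaving out methamphetamine day 1, robust variances and leaving out each array.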

Additional observations from a re-analysis of the deposited data

Results flagged for a closer look

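The ATPase gene Psmc1 had 1 naive array at 11.856, while the other 5 lay between 11.54 and 11.62. Its gap to the nearest of them was 0.735 of the whole range, above Dixon's 95% critical value for 6 samples. Such a gap was looked for in the groups of 4 or more arrays, which here is the naive group alone, over the 32 members that the rule on named genes covers, and chance gives about 1 in 20 such values. The array lies on slide 10, which had the highest mean of Psmc1 at 11.69, and the slide's part was not tested.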

How the results depend on the processing

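The 3 arrays per drug and day limit the single-day comparisons. Of 17 results, 13 gave 0 members under all 12 alternatives and in every fit that left out 1 array. In methamphetamine treatment 1 member, Psmg3, passed under median centring, a stricter filter, the mean of a gene's probes and the replicate block (0.10, limma adjusted p = 0.0460), and 0 to 1 passed when 1 array was left out, with 1 in 15 of 78 such fits. Over all genes 406, 566, 608 and 570 passed in these settings, in the order named, against 572 as reported. Between saline days 1 member, Psmd14, passed in the deposited log2 values, where 116 of all genes passed, against 1 as reported. For methamphetamine on single days 1 member, Psmb5 on day 1, passed with slides as a random block, and 0 to 1 with 1 array left out. Over all genes the calls summed over those days were 1435 with that block, against 907 as reported. For heroin on single days 0 members passed in the deposited log2 values, with no slide term, with slides as a random block and in the larger chip lot alone, against 1 in the other 8 alternatives, and 0 to 2 with 1 array left out. The cause was not tested. The call of Psmc3 on day 15 of heroin was lost without heroin replicate 1 (limma adjusted p = 0.102) or 2 (0.143), saline replicate 1 (0.0737) or 2 (0.233), and naive replicate 2 (0.0652), 4 (0.0958) or 5 (0.122). The labels do not say whether replicate numbers pair the samples. The mean correlation of deviations was -0.01 for the same number and 0.01 for other numbers. Single correlations for the same number went down to -0.84, so these means cannot exclude pairing. The replicate block changed no other count of members. Over all genes it did move counts, as from 7 to 16 for the heroin effect in treatment minus withdrawal. Counts over all genes moved more than those of members. In methamphetamine treatment, where 572 genes passed, 69 did in the deposited log2 values, 144 with no slide term, 167 in the larger lot and 42 without methamphetamine day 1. In methamphetamine against heroin treatment these were 19, 102, 96 and 9, against 431, and in heroin treatment 48 with no slide term and 37 in the larger lot, against 205. For the methamphetamine effect between treatment days the count was 44 in the larger lot and 426 with slides as a random block, against 136, and for that effect in treatment minus withdrawal 27 under median centring, 19 with no slide term and 9 in the larger lot, against 44. For heroin summed over single days they ran from 15 in the larger lot to 335 without methamphetamine day 1, against 170. The members' median was 0.04 under median centring in both treatment comparisons, against 0.01, and -0.01 in the larger lot in heroin withdrawal, against 0.01.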
